A study of Mus musculus with 2 samples.

Results

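The cells described here are 91 barcodes of a mouse testis single-cell RNA sequencing table that together carry the complement and receptor transcripts of macrophages. They were selected on their own counts: a barcode was taken where its unique molecular identifiers (UMIs, counted transcript molecules) for C1qa, C1qb, C1qc and Csf1r summed to at least 8. This gave 91 of 28245 barcodes, or 0.322% (exact Clopper-Pearson 95% interval 0.259 to 0.395%, which covers counting error only). The study profiled total testicular cells of adult mice of the strain C57BL/CJ;ICR, wild type (WT) or miR-202-/- (without the microRNA miR-202), by droplet-based 3′ sequencing after enzymatic digestion and removal of debris by sorting, with 1 library per genotype and no statement of how many animals each library holds. The question was what the loss of this microRNA changes in the makeup and expression of testicular cells.

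The table joins both libraries, and each barcode name ends in 1 or 2. No label or header ties a suffix to a genotype, so no comparison of WT with miR-202-/- was made and each suffix is given as it stands. Suffix 1 held 37 gated barcodes of 12935 (0.286%, 0.201 to 0.394%) and suffix 2 held 54 of 15310 (0.353%, 0.265 to 0.460%), and these intervals overlapped. With 1 library per suffix nothing was tested. A gene is called higher or lower here only as a size: its level (CPM, counts per 1000000: the gene's UMIs over all UMIs of a set) had to differ by a factor of 2 or more under suffix 1 and again, the same way, under suffix 2, with at least 50 CPM and 20 UMIs on the higher side. All intervals on levels and ratios are exact 95% intervals for counting error.

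Macrophages of the testis are resident leukocytes of the interstitial tissue, where they lie against Leydig cells, and of the peritubular layer that wraps the seminiferous tubules. In textbook accounts the interstitial cells carry the mannose receptor and little MHC class II, and the peritubular cells carry MHC class II, the surface complex that presents peptides to CD4+ T cells. C1qa, C1qb and C1qc encode the chains of C1q, which starts the classical complement pathway, and Csf1r encodes the receptor through which macrophages receive their survival signal.

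The 4 genes separated a small group from the rest of the table. In all, 24481 barcodes had none of their UMIs. Gated barcodes had 8 to 132 UMIs of the 4 genes with a median of 30. Just outside the threshold, 9 barcodes had 5 to 7 UMIs. Just inside, 7 barcodes had 8 to 10 UMIs. The barcodes with 4 to 7 UMIs differed in kind: of their 170 gate-gene UMIs 142 were C1qb, 25 of these 39 barcodes held at least 1000 UMIs of the spermatid gene Prm1, and Tyrobp was detected in 3. Of the 7 barcodes just inside, Tyrobp was detected in 3, Ctss in 6 and at least 1000 Prm1 UMIs in 1.

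**Figure D1:**
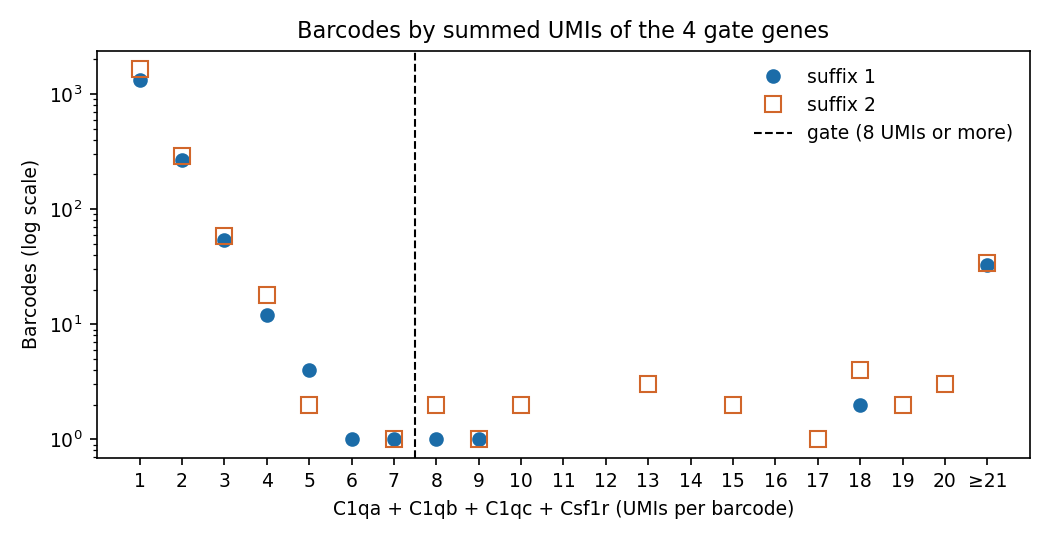
Number of barcodes (log scale) at each sum of C1qa, C1qb, C1qc and Csf1r UMIs, for suffix 1 (filled circles) and suffix 2 (open squares), with sums of 21 or more pooled and the 24481 barcodes at 0 not drawn; the dashed line is the gate. Between 5 and 20 UMIs no sum is held by more than 6 barcodes, and 67 of the 91 gated barcodes lie at 21 or more.

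Several features of the table bear on every value below. Gated barcodes had a median of 5819 UMIs (3616 to 49804) and 2770 genes, against 5776 UMIs in the 26531 barcodes that passed no somatic gate (called ungated here, mostly germ cells). Spermatid RNA was present in every one of them: the median was 80 Prm1 UMIs per gated barcode, 80.5 in the T and NK gate and 100 in ungated barcodes, and Prm1, Prm2, Tnp1 and Tnp2 made up 4.80% of gated UMIs. The part of free RNA in low levels was not tested gene by gene. Of the gated barcodes 16 had over 10000 UMIs, and they supplied 45.8% of the gate's UMIs. They had a median of 198 UMIs of a 15-gene spermatocyte list, against 36 in the other 75, medians not scaled for depth. In sum the list held 3262 of the 362461 UMIs of the 16 deep barcodes and 2916 of the 429384 UMIs of the other 75. No doublet caller was run. Of barcode sequences, 73 occurred under both suffixes, and 1 of them belonged to a gated barcode. Finally, 268 genes were listed at 0 in every barcode of suffix 1 and 412 in every barcode of suffix 2, while no gene above 0 was found in fewer than 17 barcodes of suffix 1 or 19 of suffix 2. Such genes were left out of all comparisons, since a 0 that fills a whole suffix need not be a measured 0.

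The gate genes themselves are given as a description. C1qa stood at 1866 CPM under suffix 1 and 1663 under suffix 2, and every gated barcode had a UMI of it. C1qb stood at 1467 and 1218 CPM, and C1qc at 1367 and 1085. Csf1r stood at 380 and 324 CPM, with a UMI in 68.1% of gated barcodes. All 4 values were smaller under suffix 2, none of them by a factor of 2. The C1q genes lie side by side on the minus strand of chromosome 4 in GRCm38 (C1qb at chr4:136880129-136886187, C1qc at chr4:136889804-136893065 and C1qa at chr4:136895917-136898803, GENCODE M21), and Csf1r lies on chromosome 18.

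Outside the gate C1qb parted from its neighbours. A C1qb UMI was found in 12.4% of ungated barcodes, against 0.407% for C1qa, 0.283% for C1qc and 0.204% for Csf1r. In ungated barcodes with 0 to 99 Prm1 UMIs the level of C1qb was 7.55 CPM (7.02 to 8.12). In those with at least 1000 it was 28.5 CPM (27.2 to 29.9), and 43.3% of these 3019 barcodes had a UMI at a median depth of 17746. C1qa went the other way over the same bins, from 0.621 CPM (0.475 to 0.798) to 0.157 (0.0753 to 0.289), with a UMI in 0.414% and 0.331% of barcodes. The C1qb level was thus highest in the barcodes with most spermatid RNA, far below the 1316 CPM of the gate, and the source of these UMIs was not tested. With C1qb left out of the gate and a minimum of 6 UMIs, 87 barcodes passed and all 87 were among the 91. A barcode with at least 8 UMIs of the other genes is in the gate by rule, so this overlap was largely set beforehand.

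**Figure D2:**
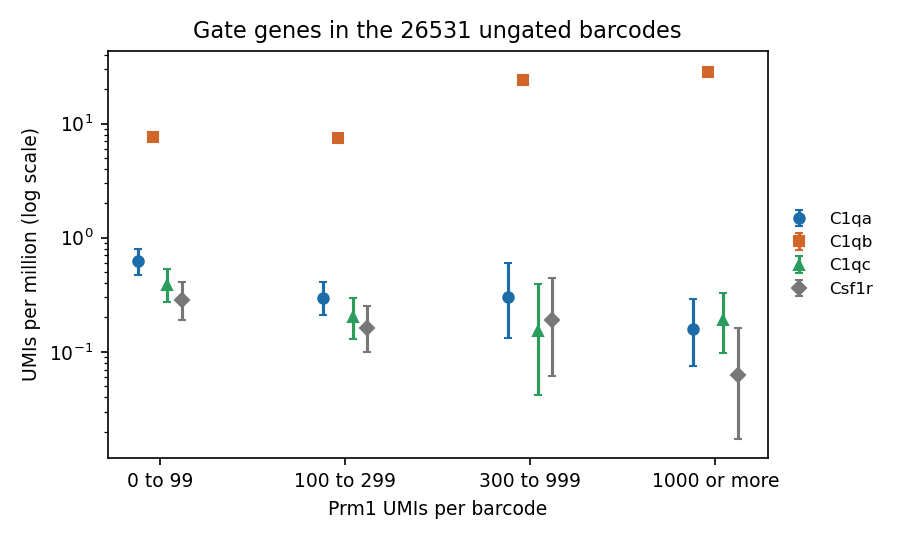
Level of each gate gene (CPM, log scale, with exact Poisson 95% intervals) in the 26531 ungated barcodes, binned by Prm1 UMIs per barcode. C1qb lies between 7.48 and 28.5 CPM and is highest in the bin of 1000 or more, while C1qa, C1qc and Csf1r stay below 1 CPM in each bin.

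Because C1qb and C1qc differ in this way although they are neighbours, the 250 bases before the RefSeq start of each are shown (GRCm38.p6, minus strand, 5′ to 3′; C1qb at chr4:136886201-136886450 and C1qc at chr4:136892915-136893164). Capitals mark GAGGAA on either strand, a core of the sites bound by the myeloid factor PU.1.
C1qb: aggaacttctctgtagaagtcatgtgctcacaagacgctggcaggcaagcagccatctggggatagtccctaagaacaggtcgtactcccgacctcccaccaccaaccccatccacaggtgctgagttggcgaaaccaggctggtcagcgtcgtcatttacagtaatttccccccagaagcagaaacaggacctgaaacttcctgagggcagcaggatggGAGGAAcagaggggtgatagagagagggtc
C1qc: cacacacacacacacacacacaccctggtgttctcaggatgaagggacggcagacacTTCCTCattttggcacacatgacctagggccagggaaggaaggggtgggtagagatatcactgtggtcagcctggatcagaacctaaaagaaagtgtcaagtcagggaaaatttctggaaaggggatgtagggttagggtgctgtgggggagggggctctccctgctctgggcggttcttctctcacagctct
GAGGAA was found once in each window, with its first base 30 bases before the RefSeq start of C1qb and 193 bases before that of C1qc. It occurs in 23.3% of the 32851 promoter windows of this length, and a match of these letters is a description only. The GENCODE start of C1qc, at chr4:136893065 on the minus strand, lies inside the window shown. Part of that window is thus within the gene as placed above, and the distance depends on the annotation used.

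Beyond the 4 genes of the rule, the gated barcodes carried a broad macrophage programme. Against ungated barcodes 412 of 19774 measured genes were higher (2.08%, the 4 gate genes among them) and 4 were lower (0.0202%). Of the pan-macrophage markers 18 of 20 measured were higher, with a median log2 ratio of 9.38 against -0.13 over all measured genes. Lyz2, which encodes the lysozyme of myeloid cells, stood at 3146 CPM under suffix 1 and 2312 under suffix 2, against 0.814 in ungated barcodes, and 92.3% of gated barcodes had a UMI of it against 0.645% of ungated ones. Ctss, a cathepsin of antigen-presenting cells, stood at 512 and 478 CPM with a UMI in 93.4%. These genes were therefore common to most of the gate under both suffixes. Adgre1, which encodes the F4/80 antigen, was found in 60.4% of gated barcodes, and Cd68, a lysosomal glycoprotein, in 71.4%.

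The markers that were not called are as plain. Aif1, widely used as a macrophage stain, stood at 659 CPM in the gate and 527 in ungated barcodes, a ratio of 1.25 (1.15 to 1.36), and 90.8% of ungated barcodes had a UMI of it. In this table Aif1 therefore did not set the gate apart. Mertk, a receptor for the uptake of dead cells, stood at 24.0 CPM on 19 UMIs against 0.0962 CPM and reached neither minimum of the rule. Fcgr1 was listed at 0 throughout suffix 1 and stood at 60.3 CPM in the gated barcodes of suffix 2, with a UMI in 38.9% of them.

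**Figure D3:**
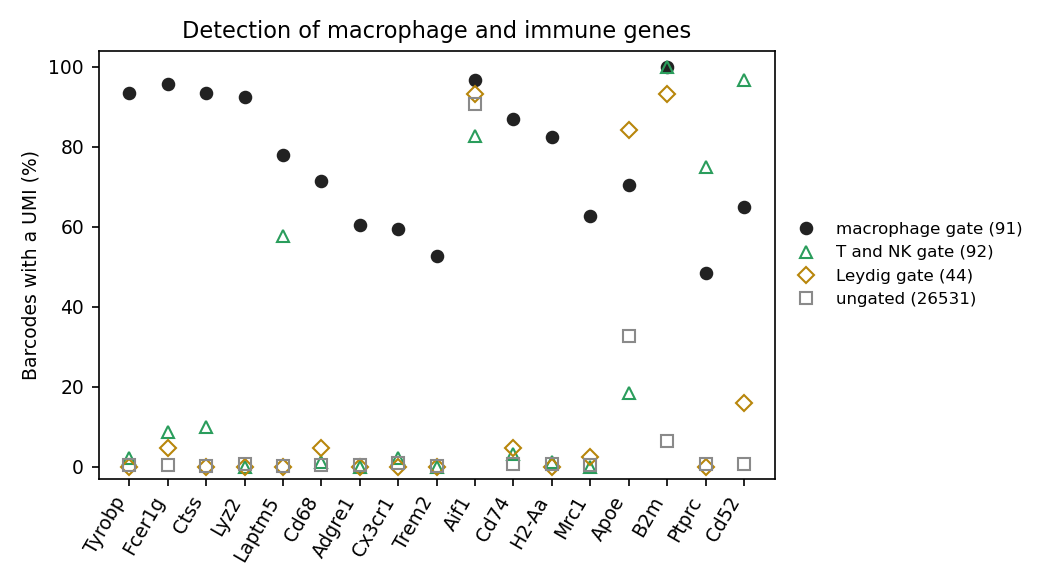
Percent of barcodes with at least 1 UMI of each gene in the macrophage gate (91 barcodes, median 5819 UMIs), the T and NK gate (92, median 5054.5), the Leydig gate (44, median 11572) and ungated barcodes (26531, median 5776). Tyrobp to Trem2 lie above 50% in the macrophage gate and near 0 in ungated barcodes, while Aif1 lies above 80% in every set.

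The largest ratios to ungated barcodes, beside the gate genes, belonged to genes of uptake, lipid handling and chemotaxis. Folr2, a folate receptor of tissue macrophages, was 4619-fold higher (2497 to 9484), Trem2, a lipid-sensing receptor, 4267-fold (2361 to 8471) and Ccl2, a chemokine for monocytes, 2614-fold (1663 to 4300). Dab2, an endocytic adaptor, Pf4, a chemokine, Rnase4, Wfdc17, Cybb, Laptm5 and Cbr2 were 1906-fold to 2391-fold higher. Each of these ratios rests on an ungated level below 1 CPM. On the other side only 1700020G17Rik passed the rule with at least 100 CPM in ungated barcodes, at 44.2 CPM against 111, a ratio of 0.398 (0.277 to 0.553).

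Receptor signalling through Tyrobp and Fcer1g, the adaptors that carry the signals of activating receptors, was represented by 10 of 14 measured genes called higher. Tyrobp stood at 701 and 563 CPM under suffixes 1 and 2, and Fcer1g at 618 and 601. Fcgr3, an activating Fc receptor, stood at 219 and 144 CPM, and Clec4a2, a C-type lectin, was among the called genes. Syk, the kinase downstream of both adaptors, was listed at 0 throughout suffix 1 and stood at 27.0 CPM in the gate of suffix 2. Of the 8 measured genes of the Toll-like receptor list 3 were higher, Cd14, Ly86 and Unc93b1, a partner of the receptors that sense nucleic acids.

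Genes of the lysosome, where taken-up material is digested, were mostly higher. Of that list 20 of 24 were higher, and 21 of 24 when the 16 deep barcodes were left out. Cst3, a secreted inhibitor of cathepsins, stood at 2045 CPM in the gate and 35.8 in ungated barcodes. Ctsb, a lysosomal protease, stood at 743 and 526 CPM under suffixes 1 and 2. Iron and heme genes were higher in 8 of 13 cases: the ferritin chains Fth1 (2837 and 2320 CPM) and Ftl1 (2162 and 1597 CPM) had the most UMIs, and Slc40a1, the iron exporter, Hmox1, which breaks down heme, and Cd163, the receptor for hemoglobin bound to haptoglobin, were also called. In the lipid list 6 of 16 were higher. Apoe, a carrier of cholesterol, alone made up 6936 CPM (8181 and 6131 by suffix).

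Antigen presentation was represented in both classes. Of the MHC class I list 7 of 11 were higher, led by H2-D1 (1071 and 848 CPM) and B2m (862 and 923 CPM), the heavy and light chains of the complex. Of the MHC class II list 7 of 8 were higher, led by Cd74, the invariant chain (3256 and 2790 CPM), H2-Aa (1608 and 1472 CPM) and H2-Ab1 (1647 and 1287 CPM). H2-Aa was found in 82.4% of gated and 0.686% of ungated barcodes.

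Regulators and secreted products followed. Of the transcription factor list 9 of 22 were higher, among them Spi1, which encodes PU.1 (113 and 99.8 CPM), Zeb2 and Maf, with Irf4 at 0 UMIs. Of the early response list, genes such as Fos and Jun that are induced within minutes and also by tissue digestion, 17 of 18 were higher. Fos stood at 943 and 640 CPM under suffixes 1 and 2 and Jun at 698 and 493, and the part of the digestion in these levels was not tested. Of the chemokine and cytokine list 5 of 12 were higher, Ccl8, Pf4, Ccl4, Ccl2 and Cxcl16. Of the interferon response list 5 of 11 were higher, led by Ifi27l2a and Bst2. Complement genes outside the gate were higher in 3 of 11 cases, C4b and C3ar1 among them.

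Other groups did not pass the rule. None of 15 cell cycle genes was called, and their median log2 ratio was 0.06. Mki67, a marker of cycling cells, was found in 6.59% of gated and 6.65% of ungated barcodes. All 6 gated barcodes with a Mki67 UMI were among the 16 with over 10000 UMIs, and none of the other 75 had one. None of 17 retinoid genes was higher. Of 12 growth and niche factor genes only Igf1 was called, and Csf1, which encodes the ligand of Csf1r, and Kitl had 0 UMIs in the gate. Of 11 steroid-related genes Tsc22d3, a target of glucocorticoids, was higher, while the steroidogenic genes Star (10.1 CPM) and Cyp11a1 (7.58 CPM) did not pass the rule.

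The counts against ungated barcodes depended on the deep barcodes. Without the 16 barcodes over 10000 UMIs, 646 genes were higher and 108 lower. Without suffix 1 or suffix 2, where the factor of 2 had to hold under the other suffix only, the count of lower genes was 43 or 125. The list counts moved little for the macrophage genes: pan-macrophage 18 of 20, signalling 10 of 14 and MHC class II 7 of 8 without the deep barcodes. They moved up for complement (5 of 11), iron and heme (11 of 13) and efferocytosis (8 of 19, from 4).

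The gated barcodes were not alike. A list of 14 interstitial macrophage genes (Mrc1, Folr2, Cd163, Pf4 and others) and the MHC class II list of 9 genes divided them almost completely. Neither list entered the gate. The class II list also holds the costimulatory genes Cd86 and Cd40. Cd40 was listed at 0 throughout suffix 1 and had 4 UMIs in the gated barcodes of suffix 2. The interstitial list left a gap between 9 and 14 UMIs per barcode, and a value of 12 within it, chosen after the values were seen, was used to describe 2 ranges: 44 barcodes rich in interstitial UMIs (14 to 153, median 67.5) and 47 poor in them (0 to 9, median 2). Under suffix 1 the ranges held 19 and 18 barcodes and under suffix 2 they held 25 and 29, so the poor range made up 48.6% (31.9 to 65.6%) and 53.7% (39.6 to 67.4%). These are ranges of a score and not cell types. Only 3 barcodes had 9 to 14 UMIs of the list, so few lay near the dividing value.

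MHC class II ran against the interstitial genes. Class II UMIs per barcode ran from 1 to 194 with a median of 111 in the poor range, and from 0 to 158 with a median of 10.5 in the rich range. At least 40 class II UMIs were found in 45 of 47 poor and in 8 of 44 rich barcodes. These 8 rich barcodes had 4674 to 9642 UMIs in all, so none was among the deep ones. Of the 2 poor barcodes with fewer than 40, 1 had 1 class II UMI, 9 interstitial UMIs and 9 gate UMIs, and the other had 32, 0 and 8. More class II than interstitial UMIs were found in 53 of 91 barcodes (58.2%, 47.4 to 68.5%), 51.4% under suffix 1 and 63.0% under suffix 2, with wide overlap of the intervals.

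**Figure D4:**
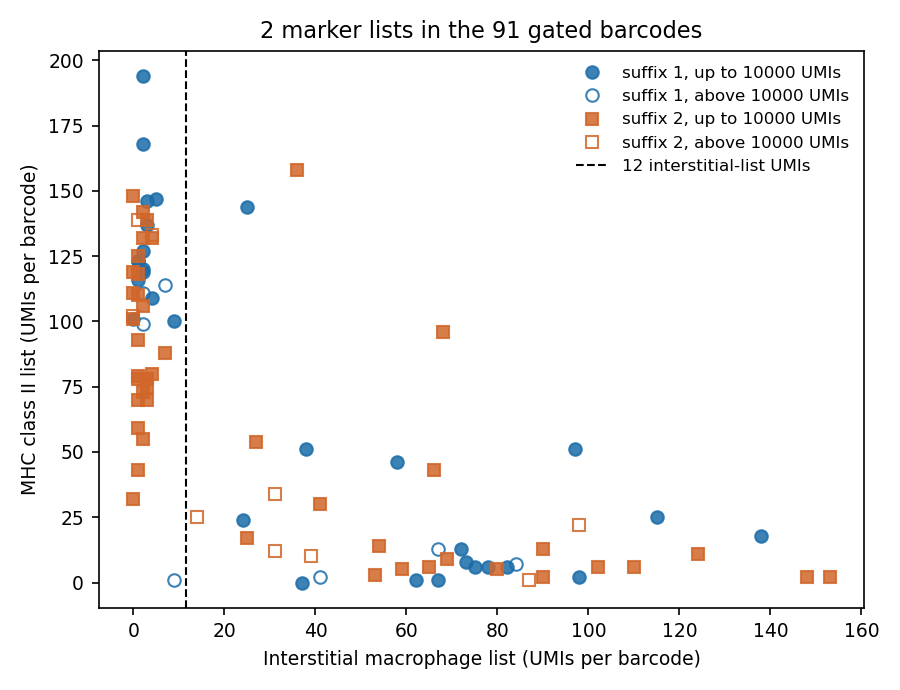
UMIs of the interstitial macrophage list (x) and of the MHC class II list (y) in each of the 91 gated barcodes, by suffix, with open symbols for the 16 barcodes above 10000 UMIs and a dashed line at 12 interstitial UMIs. Of 47 barcodes left of the line 45 have at least 40 class II UMIs, and of 44 right of it 8 do.

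The levels of single class II genes repeated under each suffix. H2-Aa stood at 492 and 476 CPM in the rich barcodes of suffixes 1 and 2, and at 2739 and 3013 CPM in the poor ones. The ratio of rich to poor was 0.167 (0.143 to 0.193). Cd74 stood at 991 and 695 CPM against 5549 and 6032, a ratio of 0.137 (0.122 to 0.154), and H2-Eb1 and H2-Ab1 had ratios of 0.112 (0.0928 to 0.134) and 0.153 (0.130 to 0.179). These 4 of the 7 measured genes of the class II list were lower in the rich range. H2-DMa, which loads peptide onto the complex, did not pass the rule, at 111 CPM against 149 (ratio 0.750, 0.498 to 1.131), nor did Cd86, a costimulatory ligand (ratio 1.45, 0.794 to 2.719).

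H2-Aa (chr17:34282744-34287823, minus strand) and H2-Eb1 (chr17:34305867-34316674, plus strand) were both lower in the rich and higher in the poor range, and the 250 bases before their RefSeq starts are shown for that reason (GRCm38.p6, each on its own strand, 5′ to 3′, chr17:34287824-34288073 and chr17:34305617-34305866). Capitals mark ATTGG on either strand, the inverted CCAAT box that is bound by NF-Y in class II promoters.
H2-Aa: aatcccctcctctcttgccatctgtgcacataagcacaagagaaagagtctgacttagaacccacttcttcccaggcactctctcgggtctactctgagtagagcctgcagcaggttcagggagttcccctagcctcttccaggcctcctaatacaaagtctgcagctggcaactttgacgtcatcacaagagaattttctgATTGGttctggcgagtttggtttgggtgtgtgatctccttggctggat
H2-Eb1: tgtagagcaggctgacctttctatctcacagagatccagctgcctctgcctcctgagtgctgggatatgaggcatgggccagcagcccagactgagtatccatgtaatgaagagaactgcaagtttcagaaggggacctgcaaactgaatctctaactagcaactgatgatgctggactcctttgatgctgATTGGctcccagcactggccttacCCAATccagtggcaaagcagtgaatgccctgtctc
ATTGG was found once before H2-Aa, 48 bases from the start, and at 59 and 35 bases before H2-Eb1. It occurs in 33.8% of the 32851 windows, and a match of these letters is no evidence of binding.

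Across all genes 393 of 5813 measured were higher in the rich range (6.76%) and 125 were lower (2.15%), with a median log2 ratio of 0.14. All 14 interstitial genes are among the 393, as the division by them requires. Outside the list, Ccl8, Ninj1, Ctsd, Apoe, Sulf2 and C4b were named for their ratios among genes with at least 100 CPM in the rich range. Genes at 0 in the poor range, such as Slc40a1, have only a lower bound and cannot be ranked with them. Ccl8, a chemokine, stood at 3497 and 1585 CPM in the rich barcodes of suffixes 1 and 2 and at 25.9 and 5.30 CPM in the poor ones, a ratio of 155 (66.0 to 477). It was found in 95.5% of rich and 4.26% of poor barcodes. Apoe separated the ranges without overlap: rich barcodes had 52 to 222 Apoe UMIs with a median of 118.5, and poor barcodes had 0 to 21 with a median of 0. Ctsd, an aspartic protease of the lysosome, had 126 UMIs in the rich and 2 in the poor range, a ratio of 48.2 (13.1 to 402). Ninj1, a protein of plasma membrane rupture, Sulf2, a sulfatase of heparan sulfate, and C4b, complement component 4, had ratios of 61.2 (10.7 to 2448), 42.9 (7.38 to 1723) and 42.1 (7.25 to 1692), each on 1 UMI in the poor range.

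Within the interstitial list the poor barcodes of both suffixes had no UMI of F13a1, Folr2, Stab1 and Cd163. F13a1, the coagulation factor XIII A chain, had a ratio of 69.6 (lower bound 56.3) against a floor of 3 UMIs over the poor range. Ratios to that floor were 42.1 (lower bound 33.8) for Stab1, a scavenger receptor, and 32.9 (lower bound 26.4) for Folr2. Cbr2, a carbonyl reductase, had 119 UMIs in the rich and 2 in the poor range. Mrc1, the mannose receptor, was not absent from the poor range: it stood at 71.2 and 47.7 CPM there and at 767 and 582 CPM in the rich barcodes, a ratio of 11.1 (7.05 to 18.4), with a UMI in 31.9% and 95.5% of barcodes. These are descriptions, since the list set the ranges.

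Several gene groups lay on the side of the rich range. Of the lysosomal list 17 of 23 measured genes were higher and none lower, with a median log2 ratio of 2.07. Ctsb stood at 1407 and 818 CPM in rich and 71.2 and 74.1 CPM in poor barcodes, and Grn, the progranulin gene, stood at 655 CPM in rich and 43.7 CPM in poor barcodes. Cst3 and Ctss did not pass the rule, with ratios of 1.75 (1.57 to 1.95) and 1.32 (1.07 to 1.63). Iron and heme genes were higher in 10 of 12 cases, with Ftl1 at 3696 and 2235 CPM against 609 and 609, Hmox1 at a ratio of 10.5 (3.88 to 40.0) and Slc40a1 at 58 UMIs against 0. Of the list for uptake of dead cells 5 of 9 were higher: the receptors Axl, Lrp1 and Stab1 and the bridging ligands Gas6 and Pros1. Gas6 and Stab1, like Cd163 in the iron list, Pf4 among the chemokines and Maf among the transcription factors, belong to the list that set the ranges and had to differ. Complement genes were higher in 3 of 5 cases, C4b and Itgb2 among them, and lipid genes in 5 of 11.

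Identity genes split. Of 19 pan-macrophage genes 8 were higher in the rich range, among them Lyz2 (5710 and 3228 CPM against 550 and 895), Adgre1, Trem2 and Ms4a7. Others were close: Cx3cr1, the fractalkine receptor, had a ratio of 1.46 (0.991 to 2.171) and Cybb, a subunit of the phagocyte oxidase, 1.36 (0.891 to 2.107). Tyrobp and Fcer1g did not pass, at 1.62 (1.33 to 1.97) and 1.64 (1.35 to 2.001). Of the 4 gate genes 2 were called higher in the rich range. Csf1r, 1 of them, stood at 620 and 479 CPM in rich and at 136 and 84.7 CPM in poor barcodes. None of the 7 barcodes with 8 to 10 gate UMIs was in the rich range, so the gate threshold bears more on the poor range. Of 12 transcription factors 5 were higher, Maf with a ratio of 19.1 (9.52 to 44.9), Cebpb, Klf2, Klf4 and Klf6, of which Klf6 was not called without the deep barcodes.

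The poor range had its own genes besides class II. Cd52, a short surface glycoprotein of leukocytes, stood at 363 and 646 CPM in the poor barcodes of suffixes 1 and 2 and at 44.8 and 54.8 CPM in the rich ones, with a UMI in 95.7% and 31.8%. Mgl2, a lectin of antigen-presenting cells, Slamf9 and Cd72, a coreceptor also known from B cells, had ratios of rich to poor of 0.0557 (0.0147 to 0.151), 0.0519 (0.0138 to 0.140) and 0.0403 (0.00471 to 0.156). Chemokines and cytokines went both ways. Pf4, Ccl2 and Ccl8 were higher in the rich range, and Il1b, Cxcl16 and Ccl4 were higher in the poor range. Without the 16 deep barcodes the calls of Ccl2, Cxcl16 and Ccl4 were lost. Ccl4 stood at 0 and 71.9 CPM in rich and 544 and 244 CPM in poor barcodes, yet only 36.2% of poor barcodes had a UMI of it. Ccr2, the receptor of recruited monocytes, was found in 17.0% of poor and 0.592% of ungated barcodes and in no rich one, on 10 UMIs in all. The heat shock genes Hspa1a and Hspa1b were higher in the poor range as well, with ratios of 0.407 (0.284 to 0.577) and 0.0933 (0.0288 to 0.236), while Fos did not differ by the rule (0.997, 0.846 to 1.18). The call of Hspa1a was lost without the deep barcodes and that of Hspa1b was not.

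**Figure D5:**
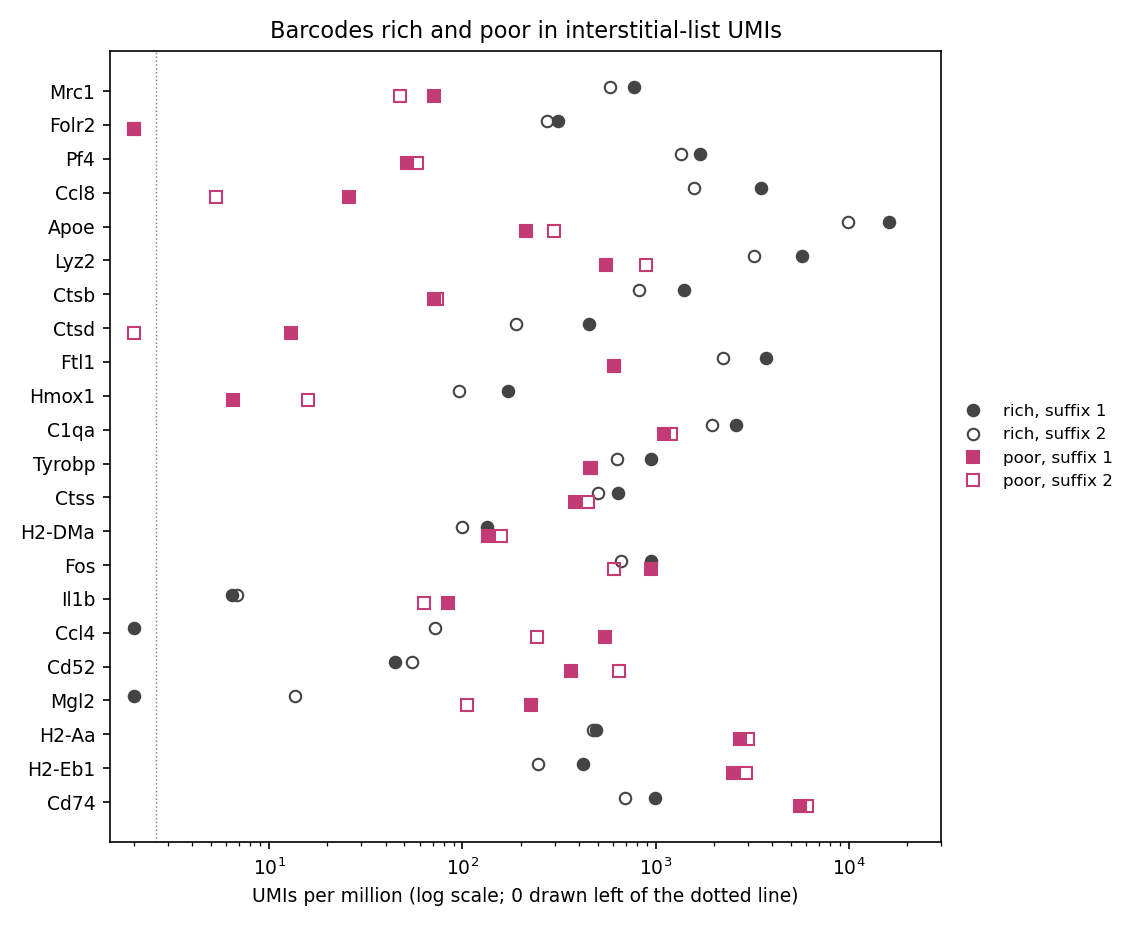
Level of 22 genes (CPM, log scale, 0 drawn left of the dotted line) in gated barcodes rich (circles) and poor (squares) in interstitial-list UMIs, filled for suffix 1 and open for suffix 2. Mrc1 to Hmox1 lie higher in rich barcodes, Il1b to Cd74 lie higher in poor ones, and Ctss, H2-DMa and Fos lie within 2-fold under each suffix.

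Depth and the share of spermatid RNA also differed between the ranges. Rich barcodes had a median of 6959 UMIs and poor ones 4877, and Prm1, Prm2, Tnp1 and Tnp2 made up 3.09% and 7.04% of their summed UMIs. At least 1000 Prm1 UMIs were held by 1 rich and 3 poor barcodes. The median share of these genes per barcode was 2.74% in the rich and 4.21% in the poor range. Median Prm1 counts were close, at 81.5 and 80 UMIs. Thinned to 3000 UMIs each, rich and poor barcodes had medians of 1725.5 and 1684 genes. The part of these differences in the gene ratios was not tested. Without the 16 deep barcodes the class II list had 5 of 7 genes lower in the rich range, lysosomal genes 16 of 22 higher and iron and heme genes 9 of 12. The count of genes lower in the rich range went from 125 to 71, while the cytokine list changed to 2 higher and 1 lower of 7.

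Other somatic cells were the next comparison. The closest leukocytes were 92 barcodes with at least 3 UMIs of Cd3e, Cd3g, Trbc1 and Nkg7, a T and NK gate. Of 7748 measured genes 226 were higher in the macrophage gate (2.92%) and 92 lower (1.19%). All 14 interstitial, all 7 class II, 20 of 23 lysosomal and 13 of 18 early response genes were higher. None of 18 early response genes was lower. H2-Aa, at 1 UMI in the T and NK gate, had a ratio of 887 (159 to 35060). Lyz2, at 0 there, had a ratio of 511 to a floor of 3 UMIs, with a lower bound of 416. Ccl8, Cd74, H2-Eb1, Lgmn, Apoe and Pf4 were the other leading genes outside the gate. Lower were 12 of 13 T and NK genes, partly by the choice of that gate, such as Cd3g at 1.26 CPM against 392 and Ccl5, a chemokine of cytotoxic cells, at 5.05 against 1521. Ptprc, which encodes the pan-leukocyte antigen CD45, was also lower in the macrophage gate, at 79.6 CPM against 236. Ms4a4b, Ltb and Gimap4 completed the lowest ratios. None of the class I genes passed the rule in either direction.

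Leydig cells, the neighbours of interstitial macrophages, were taken as 44 barcodes with at least 20 UMIs of Cyp17a1, Cyp11a1, Hsd3b1 and Hsd3b6. Of 7903 measured genes 512 were higher in the macrophage gate (6.48%) and 696 lower (8.81%), with a median log2 ratio of 0.42. Among the higher genes were 5 of 14 spermatocyte, 3 of 15 round spermatid and 3 of 11 cell cycle genes, and none of these lists had a lower one. Prm1, Prm2, Tnp1 and Tnp2 made up 4.80% of macrophage gate UMIs and 3.17% of Leydig gate UMIs. The part of germ cell RNA in the 512 was not tested. Class II genes were higher in 7 of 7 cases and pan-macrophage genes in 17 of 20. The lysosomal list was divided, with 9 of 24 higher (Ctss, Lgmn, Grn and others) and 2 lower, Creg1 and Ctsl, and Cst3 stood at 4230 CPM in the Leydig gate against 2045. Apoe was 6936 CPM against 986. Of 11 complement genes 5 were lower, among them Serping1, the C1 inhibitor, at 0 UMIs in the macrophage gate, and Clu. All 13 Leydig genes were lower, some of them by the choice of that gate, such as Insl3 at 5.05 against 3077 CPM and Ptgds at 16.4 against 11025. Agt and Akr1cl had 4 UMIs each in the macrophage gate, and Hsd3b1, a gene of the Leydig gate, was also among the lowest ratios. Highest besides Cd74, Lyz2 and the class II chains were Ccl8, Mrc1 and Dab2. The Leydig gate was deeper, with a median of 11572 UMIs. With TMM scaling factors 263 genes were higher. Under suffix 2 or 1 alone, where the factor of 2 had to hold under that suffix only, 786 or 1324 were.

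Stromal barcodes, 73 with at least 20 UMIs of Dcn, Gsn, Col1a2, Col3a1 and Mgp, gave 182 of 7790 genes higher (2.34%) and 310 lower (3.98%). Class II genes were higher in 7 of 7 and pan-macrophage genes in 18 of 20 cases. Of 14 interstitial genes 12 were higher and Igf1 was lower, at 139 CPM in the macrophage gate against 627. Of 12 complement genes 6 were lower, including C3, C2 and C1s1, which encodes a protease of the C1 complex. Dcn, Mgp and Plpp3 had 0 UMIs in the macrophage gate, and Igfbp6 and Sparcl1 had 1 each. Under suffix 2 or 1 alone, with the factor of 2 asked of that suffix only, the count of higher genes was 369 or 287.

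Markers of other cell types were measured in the gate as well. Of the T and NK list Cd3e, Trbc1, Trac, Nkg7, Il7r and Gzma had 0 UMIs, and the list summed to 73.2 CPM against 3695 in the T and NK gate and 55.3 in ungated barcodes. Of 15 stromal genes 9 had 0 UMIs, Dcn, Col1a1, Col1a2, Col3a1, Mgp and Pdgfra among them, but Igf1, also on the interstitial macrophage list, was higher than in ungated barcodes (139 against 3.30 CPM) and held 110 of the list's 142 UMIs. The list summed to 179 CPM against 16.6 in ungated barcodes and 11082 in the stromal gate. Of 15 Sertoli genes Sox9, Wt1 and Cldn11 had 0 UMIs, while Trf, which encodes transferrin (212 against 0.282 CPM), and Ctsl, a cathepsin (112 against 9.97 CPM), were higher. That list summed to 423 CPM against 52.8 in ungated barcodes and 2877 in the Sertoli gate. The Leydig list summed to 160 CPM against 42.0 in ungated barcodes and 32618 in the Leydig gate, and Scp2, a sterol carrier protein, was called higher (64.4 against 15.6 CPM). Of the B and plasma cell list Ighm, the heavy chain of IgM, was higher than in ungated barcodes (79.6 against 5.95 CPM, in 36 gated barcodes), T and NK, Leydig and stromal barcodes, while Ms4a1, Jchain and Ebf1 had 0 UMIs. The erythroid list summed to 1600 CPM, with 1266 of its 1267 UMIs in 1 barcode. The part of these other cells in the gate's levels was not tested. Dendritic cell genes were not called (0 of 7): Flt3 had 2 UMIs and Zbtb46 3, Ccl22 had 0, and Itgax was listed at 0 throughout suffix 1 and had 0 UMIs in the gate of suffix 2. Of 12 monocyte genes 3 were higher than in ungated barcodes, Ifitm3, S100a4 and Fn1, while Ly6c2 and Chil3 had 0 UMIs. Against the T and NK gate Fn1 and Ifitm3 were higher and S100a4, Ccr2 and Ly6c2 lower, of 7 measured. Against the Leydig gate Fn1 and S100a4 were higher and Msrb1 lower, of 6. Against the stromal gate Plac8 and Ifitm3 were lower and none was higher, of 6. No gated barcode passed the T and NK, Leydig or stromal gate, and 5 passed the Sertoli gate.

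Between the suffixes some macrophage genes were close and others were not. Of 5813 measured genes 148 were higher under suffix 2 (2.55%) and 72 lower (1.24%), and without the deep barcodes 73 and 42. Lyz2, Apoe, Mrc1, H2-Aa and Cd74 had ratios of suffix 2 to suffix 1 of 0.735 (0.674 to 0.802), 0.749 (0.710 to 0.791), 0.883 (0.701 to 1.11), 0.915 (0.815 to 1.03) and 0.857 (0.789 to 0.931). None of them passed the 2-fold rule. No class II gene was called, and of 14 interstitial genes Cd163 was lower under suffix 2. Of 11 cell cycle genes Stmn1, Hmgb2 and Top2a were higher under suffix 2. None of these 4 calls held without the deep barcodes, where the ratios were 0.509 (0.222 to 1.13), 1.25 (0.733 to 2.19), 1.10 (0.645 to 1.89) and 1.34 (0.497 to 3.96). Nupr1, a stress-induced nuclear protein, was lower at 10.4 against 109 CPM (ratio 0.0950, 0.0290 to 0.244), with a UMI in 4 of 54 and 11 of 37 barcodes. S100a6, Nfkbiz, Mbnl1 and Itsn2 had ratios of 0.343 to 0.365. Hspa1b was higher under suffix 2 at 76.9 against 29.0 CPM (ratio 2.66, 1.26 to 6.26), in 21 of 54 and 4 of 37 barcodes. Without the deep barcodes Adgre1 was called lower under suffix 2, at 140 against 300 CPM (ratio 0.467, 0.296 to 0.728). Wfdc17 was also lower there, at 713 against 1529 CPM (0.467, 0.384 to 0.566), as were Fcgr2b, C4b and Mgl2. Cd36 (23 UMIs against 2) and Cxcl9 (20 against 0) were called higher.

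Some genes called higher under suffix 2 had most of their UMIs in a single barcode. Of 88 Tex101 UMIs 70 and of 103 Sycp1 UMIs 63, both genes of spermatocytes, were in 1 barcode each. Without the deep barcodes Tex101 stood at 36.1 against 44.5 CPM and Sycp1 at 72.1 against 77.8. Cirbp had 20 of 53 UMIs in 1 of 20 barcodes, and without the deep barcodes it stood at 72.1 against 27.8 CPM on 18 and 5 UMIs, under the minimum of 20. Ly6k, Riok3 and H2afv were also among the highest ratios. Ly6k (100.2 against 33.4 CPM) and Riok3 (144 against 44.5 CPM) were still called without the deep barcodes, and H2afv (72.1 against 55.6 CPM) was not. Ccl3 (123 CPM in the gate of suffix 2, in 18 of 54 barcodes), Ccl12 (108 CPM, 17 of 54) and Ifit3 (114 CPM, 22 of 54) were listed at 0 throughout suffix 1 and cannot be compared. Among listed genes 17 were at 0 throughout suffix 1 and 8 throughout suffix 2.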

How the data were processed

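One table of UMI counts, deposited by the authors as whole numbers and not normalized per the values themselves, held 20476 genes and 28245 barcodes. Cell Ranger 1.3.1 and Seurat 3.2.2 are listed, with build GRCm38, in the submitters' processing notes. The filters on barcodes and genes are not given in the sources used here. Members, lists and settings were chosen with earlier results of these data known.

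For each set and suffix, a gene's UMIs were added up and divided by the set's total (CPM). Genes with 20 or more UMIs in the compared sets together were taken as measured. A gene at 0 was set at a floor of 3 counts, and ranked lowest or highest in medians. Shares, levels and ratios have exact Clopper-Pearson, Poisson and conditional binomial intervals (scipy 1.17.1, numpy 2.4.6). TMM factors came from edgeR 4.0.16 as an alternative scaling. The size rule was tested on simulated counts with counting error only. The simulation had no spread between barcodes, so it cannot show calls that rest on a single barcode.

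Changed after the table was seen: Cd3d and Trbc2, detected in 7250 and 2314 barcodes, were dropped from the T and NK gate, 680 genes listed at 0 throughout one suffix were left out, and the ranges of interstitial UMIs were added. The T and NK gate that held Cd3d and Trbc2 had a minimum of 5 UMIs, and the gate used has a minimum of 3. Genes were named by rule: the gate genes, Mrc1 and H2-Aa, up to 4 members with most UMIs and 2 at 0 of each described list, and the 15 or 10 highest and 5 lowest ratios among called genes with at least 100 CPM. Other genes were named after their values were seen, and the rule was not filled for every list. Promoters are from RefSeq (GRCm38.p6), positions from GENCODE M21. The comparison of genotypes was not made. Some genes that the rule selects are not reported here.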

Additional observations from a re-analysis of the deposited data

How the results depend on the processing

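Intervals cover counting error only, 1 library stands behind each suffix, and genes below 50 CPM or 20 UMIs could not be called. No paired analysis was possible because each genotype has 1 library, no sample is tied to a suffix, and the results come from no test. Of the alternative values, 135 stayed within 1.5 times the main count or within their interval and 66 did not; for these the cause was not tested unless the setting itself sets it, as a stricter or looser fold does. Counts are given as higher and lower genes. The looser gate of 4 UMIs, which held 0.460% of barcodes, gave 145 and 125 against ungated barcodes, 122 and 281 against T and NK, 1100 lower against Leydig, 333 and 760 against stromal, 1518 and 547 for rich against poor, and 148 lower for suffix 2 against 1. A gate of 16 UMIs gave 15 lower against ungated barcodes, leaving out barcodes of another gate 18 (and an erythroid level of 1717 CPM), per-barcode CPM 36, totals without mitochondrial and spermatid genes 7 and TMM factors 13. Per-barcode CPM gave 69 lower for rich against poor, and TMM factors 263 higher against Leydig. Free RNA was also subtracted, and its estimated share reached its upper limit in several sets. It was taken from the gate and not from ungated barcodes, so the lower genes there are in part set by this setting. Counts were 892 and 1480 against ungated barcodes, 401 and 274 against T and NK, and 412 higher against stromal. For rich against poor 216 were higher, and 280 for the suffixes. The estimated share was 100% in the poor range under both suffixes, against 70.6% and 48.0% in the rich range of suffixes 1 and 2. A fold of 1.5 gave 128 lower against ungated barcodes, 237 lower against T and NK, 1218 higher against Leydig, 311 higher against stromal, 681 and 425 for rich against poor, and 467 and 333 for the suffixes. A fold of 4 gave 0 lower against ungated barcodes, 147 and 58 against T and NK, 148 and 393 against Leydig, 94 and 200 against stromal, 120 and 13 for rich against poor, and 13 and 1 for the suffixes. A minimum of 50 UMIs gave 178 lower against stromal, and 67 and 29 for the suffixes. With 1 suffix left out, the factor of 2 had to hold under the other suffix only, so these counts also rest on a changed rule. They ran from 43 to 125 lower against ungated barcodes, and 294 to 367 higher and 92 to 225 lower against T and NK. Against Leydig 786 to 1324 were higher, against stromal 287 to 369 higher, and for rich against poor 194 to 263 lower. Added after seeing the data, leaving out barcodes above 10000 UMIs gave 646 and 108 against ungated barcodes, 71 lower for rich against poor, and 73 and 42 for the suffixes. Also added, the T and NK gate with Cd3d and Trbc2, which had a minimum of 5 UMIs instead of 3, gave 648 and 183. Thinned to 3000 UMIs, gated barcodes had a median of 1699 genes. Scaling alternatives leave the comparison of class II with interstitial UMIs within a barcode as it is and were not run for it.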

Other observations

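In the gate 2 barcodes, 1 under each suffix, carried genes that the others hardly had, and were singled out after their values were seen. They had 28 and 35 UMIs of Fn1, which encodes fibronectin, 11 and 6 of Alox15, a lipoxygenase, and 8 and 7 of Ecm1, a matrix protein. In the other 89 gated barcodes Fn1 was found in 3, Ecm1 in 4 and Alox15 in 0. Their Lyz2 UMIs were 253 and 202, against at most 76 in any other gated barcode. Both lay in the range rich in interstitial UMIs (24 and 25) through Pf4 (18 each) and other genes, but had 0 UMIs of Mrc1, Folr2 and Ccl8. The call of Fn1 as a gene of the gate rests on these 2 barcodes.

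A single barcode of suffix 2 held all 757 Hbb-bs UMIs of the gate and 1266 UMIs of the erythroid list among its 7038 UMIs, beside 57 gate UMIs. Hbb-bs, Hba-a1, Hba-a2 and Hbb-bt therefore had the highest ratios between the suffixes. Outside the gate 11 barcodes had at least 8 UMIs of H2-Aa, H2-Eb1 and Cd74 together, against 65 inside it, and 6 of the 11 had a UMI of Ighm.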
